A study of Triticum aestivum with 16 samples.

Results

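PR5 and XIP-I are 2 wheat defence genes, followed here through flag leaves of 8 recombinant inbred lines. PR5 (LOC543292) encodes a thaumatin-like protein, and XIP-I (LOC542997) encodes a xylanase inhibitor protein. The members were all probe sets that the platform annotation pairs with either gene: 1 for PR5 and 2 for XIP-I, so that 2 of 771 annotated genes, and 3 of 61290 probe sets, are described. Both genes were picked because of the log2 values they had across these lines, so their levels and the order of lines are given as a description, with no test between lines.

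The lines SB15, SB33, SB53, SB80, SB138, SB146, SB165 and SB189 come from the cross Seri M82 x Babax of bread wheat (Triticum aestivum). They differ in inherited genotype, and no treatment is given for any of them. All were grown in the field with irrigation, and flag leaves, the uppermost leaf under the ear, were taken between days 6 and 8 after anthesis. Each line had 2 field replicates with 1 array each, 16 arrays in all, and no parent was among the arrays analysed here. Since whole leaves were sampled, fewer expressing cells and less RNA per cell cannot be told apart.

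Pathogenesis-related proteins are made by plants in response to fungi, bacteria and some stresses. Those of the PR5 group resemble the sweet protein thaumatin, and several of them disturb fungal membranes. XIP-I acts on fungal enzymes. Fungi secrete xylanases that cut arabinoxylan, a main polymer of cereal walls, and XIP-I binds and blocks them. It is folded like a plant chitinase but does not act as one. Wheat also has a thaumatin-like xylanase inhibitor, so that both protein folds occur among its inhibitors of fungal enzymes.

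PR5 gave a bright signal on every array. Its levels were 14.33 and 14.62 (log2, field replicates 1 and 2) in SB165, 14.01 and 13.27 in SB138, 13.73 and 13.29 in SB189, and 13.61 and 13.03 in SB146. They were 13.35 and 13.18 in SB53, 13.14 and 13.25 in SB15, 13.16 and 13.14 in SB33, and 12.70 and 12.31 in SB80. Both arrays of SB165 lay above all others and both arrays of SB80 lay below all others, while the arrays of the 6 other lines overlapped from each line to the next.

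In line means, PR5 stood at 14.47 ± 0.21 in SB165 and at 12.51 ± 0.27 in SB80 (SD, n = 2 each). That is a range of 1.97 on the log2 scale, or 3.91-fold. The spread within lines, pooled over the 8 lines, was 0.29. The step from SB165 down to SB138 was 0.83 and that from SB33 down to SB80 was 0.65, both beyond this spread. The 5 steps between SB138 and SB33 were 0.041 to 0.19, all within it, and these 6 lines spanned 0.49 in all. No neighbours among these 6 lines were apart. Of their 15 pairs 4 were apart, with arrays that did not overlap and a difference above the pooled spread. SB138 and SB189 each exceeded SB15 and SB33, by 0.32 to 0.49. The lower array of SB138, at 13.27, lay only just above the higher array of SB15, at 13.25. With 2 arrays per line, equal lines can also come out apart by this measure, and how often was not computed.

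XIP-I was read by 2 probe sets made from the same sequence. By the naming of the array's maker, the _x_at one holds probes that may also match other sequences, and the probe sets may share probes, so they are no independent measurements. On the brighter _at probe set the levels were 8.69 and 8.84 in SB165, 7.95 and 7.81 in SB33, 8.06 and 7.63 in SB146, and 8.06 and 7.23 in SB189. They were 7.54 and 7.51 in SB15, 7.53 and 7.13 in SB138, 7.32 and 7.33 in SB53, and 6.80 and 6.86 in SB80. As for PR5, SB165 was above and SB80 below every other array, and the other lines overlapped with their neighbours.

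The line means of XIP-I on this probe set were 8.76 ± 0.10 in SB165 and 6.83 ± 0.037 in SB80 (SD, n = 2 each), a log2 range of 1.93 or 3.82-fold. The pooled spread within lines was 0.26. SB165 exceeded SB33, next in order, by 0.88, and SB53 exceeded SB80 by 0.50. The steps in between were 0.00024 to 0.20. By the same measure 6 of the 15 pairs of middle lines were apart, by 0.32 to 0.55. SB33 exceeded SB15, SB53 and SB138, and SB146 exceeded the same 3 lines. For XIP-I too, how often equal lines would come out apart was not computed. SB189 had the widest gap between its arrays, 0.82 higher in field replicate 1 than in field replicate 2, which is more than the 0.55 that the middle 6 lines spanned.

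On the _x_at probe set XIP-I had 8.64 ± 0.10 in SB165 and 6.47 ± 0.14 in SB80, a log2 range of 2.17. The _at value exceeded the _x_at value on 14 of 16 arrays, by 0.25 ± 0.15 on average (SD over 16 arrays), with differences from -0.025 to 0.52. The probe sets gave 6 of the 8 lines the same rank, and only SB53 and SB138 traded places. Their line means correlated at r = 0.99, and at 0.96 over the 6 lines without SB165 and SB80. The 2 readings of XIP-I thus gave the same high and low lines and nearly the same middle order.

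All 3 probe sets had SB165 above every other array and SB80 below every other array. Among the 24751 probe sets with a mean at least 1 log2 unit above the floor of the values, 4.4% had both arrays of SB165 above all others, 4.67% had both arrays of SB80 below all others, and 0.921% had both. For the line means alone, 5.68% had SB165 highest and SB80 lowest. These shares are the background of a pattern that the choice of genes already used.

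**Figure D1:**
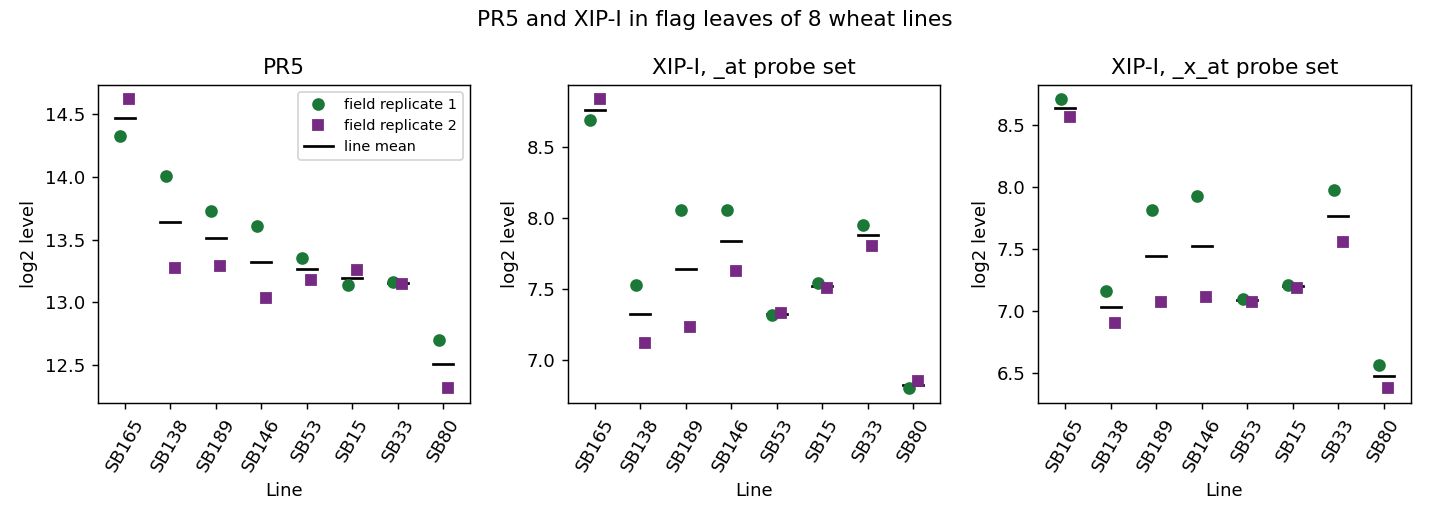
Log2 level of PR5 and of both XIP-I probe sets (vertical axes) on each of 16 arrays, by line, with lines ordered by their PR5 mean. Circles are field replicate 1, squares field replicate 2 and bars the mean of a line. SB165 (14.47 for PR5) and SB80 (12.51) lie apart from the 6 other lines on all 3 probe sets.

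The next question was whether the 2 genes agree over lines. Over the 8 line means PR5 and XIP-I (_at) correlated at r = 0.84, while Spearman's rho was 0.43. With the _x_at probe set these were r = 0.84 and rho = 0.36. With the arrays of field replicate 1 alone r was 0.76, and with those of field replicate 2 alone it was 0.88. No p is given, because both genes were chosen on these values.

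The agreement rested on SB165 and SB80. Without SB165 r was 0.57, without SB80 it was 0.75, and without both, over 6 lines, it was -0.44, with a rho of -0.37. SB33 was last of the 6 middle lines for PR5, at 13.15 ± 0.013, and first of them for XIP-I, at 7.88 ± 0.10. SB138 was first of them for PR5, at 13.64 ± 0.52, and next to last for XIP-I, at 7.33 ± 0.29 (SD, n = 2 each). SB33 and SB138 were the only pair of middle lines that was apart in both genes beyond the pooled spread. They ran opposite ways, SB33 being lower than SB138 by 0.49 for PR5 and higher by 0.55 for XIP-I. With 2 arrays per line, this pair is a description only.

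Pair by pair, 18 of the 28 pairs of lines had the same order in both genes and 10 had opposite orders. In 15 pairs the arrays of the lines did not overlap for either gene, and 13 of these ran the same way, all of them with SB165 or SB80. The other 2, between middle lines, ran opposite ways. The 13 pairs follow from SB165 lying above and SB80 below all other arrays in both genes. They restate the pattern that the choice of genes used, and are also among the 18 pairs of the same order. Of the 15 pairs of middle lines, 5 had the same order in both genes.

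Such agreement was common on this array. Of 2862 other probe sets at least 1 above the floor and with line means spanning at least 1, 8.94% correlated with PR5 over the line means as closely as XIP-I did. Of the 76 other annotated genes that met the same limits, 17.1% did. Seen from XIP-I, 7.55% of probe sets and 19.7% of annotated genes were as close to it as PR5. These shares share libraries and the same 2 outlying lines, and they describe the table without testing anything.

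**Figure D2:**
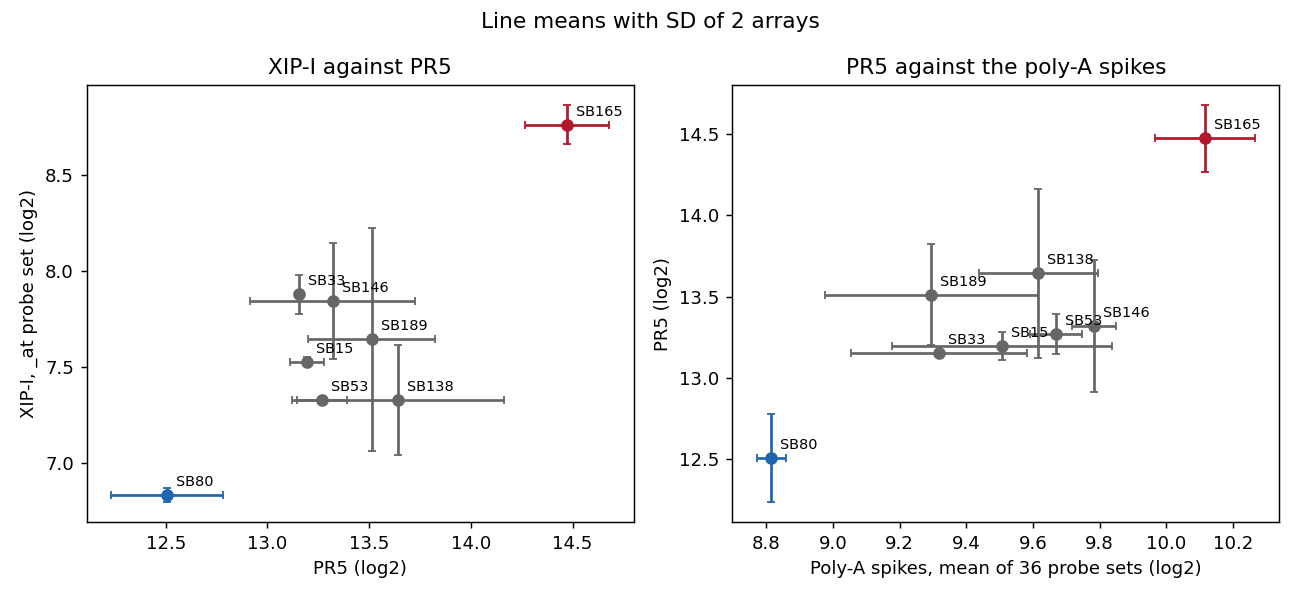
Left, XIP-I (_at probe set) against PR5, and right, PR5 against the mean of the poly-A spike controls, all in log2, with a point per line and bars for the SD of 2 arrays. SB165 (red) and SB80 (blue) are at opposite ends in both panels, and for PR5 and XIP-I the 6 other lines (grey) had r = -0.44.

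Differences between the field replicates of a line do not enter the line means, so they gave a second look at the pair of genes that their choice did not use. PR5 was higher in field replicate 1 than in field replicate 2 by 0.74 in SB138, 0.58 in SB146, 0.44 in SB189 and 0.39 in SB80. XIP-I (_at) was higher there by 0.40 in SB138, 0.43 in SB146 and 0.82 in SB189, and differed by -0.052 in SB80. In SB165 both genes were lower in field replicate 1, PR5 with a difference of -0.29 and XIP-I with -0.15. The _x_at probe set of XIP-I differed by 0.14 in SB165 and by 0.19 in SB80, so that the shared direction in SB165 held for 1 of the 2 XIP-I probe sets.

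Over the 8 lines these differences correlated at r = 0.66 (two-sided exact permutation of pairings, p = 0.074, Benjamini-Hochberg adjusted p = 0.22 over 3 relations). Spearman's rho was 0.69 (exact permutation p = 0.069, adjusted p = 0.21). Without SB165 and SB138, the lines whose PR5 differences lay farthest from the median difference, r was 0.55. The sign was the same in 5 of 8 lines. The relation did not pass the threshold of 0.05, and with 8 lines its size remains uncertain. Its r, rho and p also depend on which array of each line is numbered 1, and the numbers were not shown to match across lines.

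**Figure D3:**
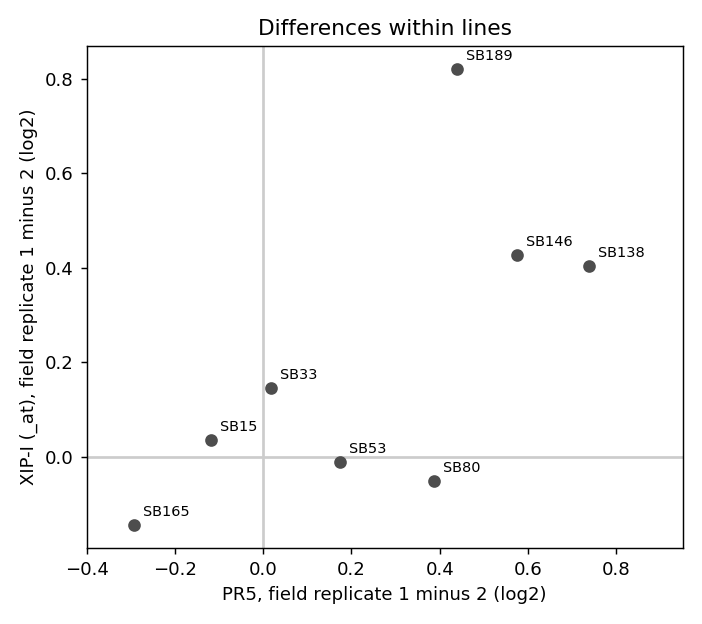
Difference of field replicate 1 minus field replicate 2 (log2) for XIP-I (_at probe set, vertical) against PR5 (horizontal), with a point per line. SB138, SB146 and SB189 are high on both axes, and SB165 is below 0 on both (r = 0.66).

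As a comparison of the field replicates themselves, PR5 averaged 13.50 in field replicate 1 and 13.26 in field replicate 2, a difference of 0.24 ± 0.12 (SE) and higher in 6 of 8 lines. XIP-I averaged 7.74 and 7.54 on the _at probe set, a difference of 0.20 ± 0.11 and higher in 5 of 8 lines. On the _x_at probe set the difference was 0.33 ± 0.11, higher in 8 of 8 lines. With limma and line as a block none of them passed (adjusted p = 0.85 for all 3 probe sets). The share of probe sets called in this comparison was 0%, with 2605 of 61115 at an unadjusted p under 0.05, and the unadjusted p of the _x_at probe set was 0.016.

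A technical measure had the same extreme lines as both genes. Poly-A spikes are bacterial RNAs meant to be added to a sample in set amounts before labelling, and their mean over 36 probe sets was 10.12 ± 0.15 in SB165 and 8.82 ± 0.044 in SB80 (log2, SD, n = 2 each). It lay between 9.29 and 9.78 in the other 6 lines. The spikes differed more between lines than within them (one-sided permutation test over the 16 arrays, 100000 resamples, p = 0.0077). Over line means their r with PR5 was 0.85 (rho 0.64), and with XIP-I it was 0.77 (rho 0.45). Without SB165 and SB80 r was 0.070 and -0.29. Of the 2862 other probe sets with the same limits on level and range, 6.25% followed the spikes as closely as PR5 and 13.6% as closely as XIP-I.

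Subtracting the spikes from each array shifted every probe set by -0.60 in SB165 and by 0.70 in SB80. Relative to the spikes, PR5 was still highest in SB165, at 13.87 ± 0.36, but SB80, at 13.21 ± 0.32, was the fifth line and the lowest was SB146, at 13.05 ± 0.34. The log2 range of PR5 was then 0.82. XIP-I was 8.16 ± 0.25 in SB165, 8.08 ± 0.16 in SB33 and 7.53 ± 0.0071 in SB80, with SB53 lowest at 7.17 ± 0.071 (SD, n = 2 each) and a range of 0.99. On this scale r between the genes was 0.57. The rank of SB80 as the lowest line thus depends on whether levels are read against all probe sets or against the spikes. SB165 was first on both scales, but relative to the spikes its lead was 0.14 over SB189 for PR5 (13.73 ± 0.0084) and 0.086 over SB33 for XIP-I, less than the pooled spread within lines of 0.28 and 0.21 on that scale.

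**Figure D4:**
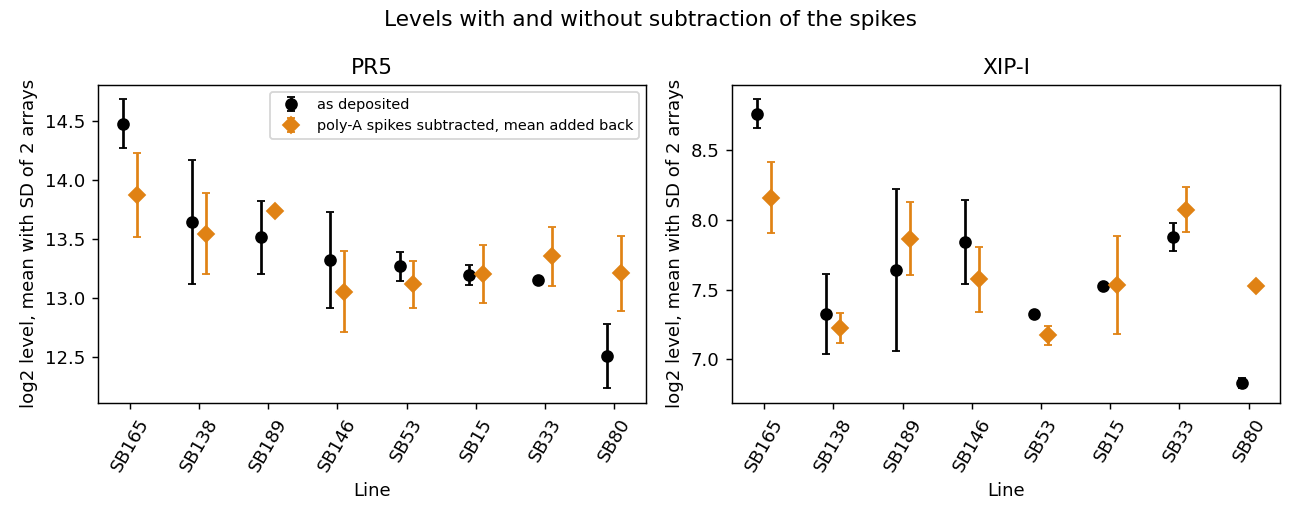
Line means of PR5 and XIP-I (_at probe set), with SD of 2 arrays, as deposited (black circles) and after subtraction of each array's poly-A spike mean (orange diamonds, overall spike mean added back). Subtraction lowers SB165 by 0.60 and raises SB80 by 0.70, so that SB80 is no longer the lowest line.

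Replicate differences within lines were also compared between the spikes and the genes. The replicate differences of the spikes correlated with those of PR5 at r = 0.29 (exact permutation p = 0.48, adjusted p = 0.48) and with those of XIP-I at r = 0.55 (exact permutation p = 0.16, adjusted p = 0.24). Spearman's rho was 0.31 (exact permutation p = 0.46, adjusted p = 0.46) and 0.52 (exact permutation p = 0.20, adjusted p = 0.29). Without the 2 lines whose replicate differences of the gene lay farthest from the median difference, r was 0.45 for PR5 and 0.34 for XIP-I. The difference between the 3 prime and middle probe sets of the sucrose synthase control, a measure of RNA integrity, was highest in SB165, at 2.75 ± 0.091, and was 2.43 ± 0.034 in SB80. The same difference for actin and ubiquitin did not put SB165 first. For actin it was 0.17 ± 0.013 in SB165 and -0.11 ± 0.15 in SB80, the lowest line. For ubiquitin it was 0.093 ± 0.062 in SB165 and 0.11 ± 0.17 in SB80. For GAPDH it had the same value, 0.0020, on most arrays, both of SB80 among them, so this control could not order the lines. Controls added at hybridisation were at 11.11 ± 0.61 in SB165 and 10.68 ± 0.52 in SB80, with SB189 highest and SB15 lowest. Their pooled spread within lines was 0.48. Over line means their r with PR5 was 0.57 (rho 0.71), and 0.83 without SB165 and SB80. With the arrays of field replicate 1 alone it was 0.86, and with those of field replicate 2 alone -0.23. With XIP-I r was 0.35 over line means, and 0.0092 without SB165 and SB80. The part of labelling, hybridisation and RNA integrity in the levels of PR5 and XIP-I was not tested.

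To see which genes had a pattern like PR5, annotated genes were ranked by their correlation with it over the 8 line means. LOC543342 came first, at r = 0.99. It had 11.43 ± 0.50 in SB165 and 7.80 ± 0.38 in SB80, a log2 range of 3.63, and it kept r = 0.91 without both of these lines. Its other probe set ranged over 0.40 and had r = 0.43. COMT1 (LOC543449), a caffeic acid O-methyltransferase of the kind that makes lignin precursors, was next at r = 0.96. LOC543422, LOC543317, LOC542826, LOC100037518, LOC543090 and LOC606308 followed at r = 0.95 down to 0.91, but at only 0.18 to 0.58 without SB165 and SB80. They carry only a locus number in the annotation. The 3 closest probe sets with no annotated gene all had r = 0.99.

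COMT1 had 12.85 and 12.94 in SB165, against 11.71 and 11.65 in SB80, and lay between 12.22 and 12.40 in the means of the other lines. It spanned 1.22 on the log2 scale, less than PR5, with small gaps between replicates. Its r with PR5 was 0.54 without SB165 and SB80. Its r with the poly-A spikes was 0.88, and that of LOC543342 was 0.84.

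The genes most like XIP-I were LOC100125708 (r = 0.95), LOC542887 (0.94), LOC606308 (0.94), LOC542826 (0.93), LOC543330 (0.93), LOC606366 (0.92), LOC100037518 (0.92) and COMT1 (0.91). Of these, LOC100125708 had r = 0.85 over the 6 middle lines and LOC606366 had 0.70. COMT1 was at 0.16, and the others lay between 0.22 and 0.67. The middle line means of LOC100125708 ran only from 6.22 in SB53 to 6.84 in SB33, with an SD of 1.08 in SB138. Those of LOC606366 ran from 6.73 in SB53 to 7.36 in SB146, with an SD of 0.42 in SB53. The order of the middle lines in both genes is thus uncertain. The 3 closest probe sets with no annotated gene had r = 0.99, 0.98 and 0.97. 4 genes were among the top 8 of both members, namely COMT1, LOC542826, LOC606308 and LOC100037518. LOC606308 spanned 4.20 on the log2 scale, with 8.00 in SB165 and 3.80 in SB80, and LOC100125708 spanned 4.29, with 9.65 in SB165 and 5.35 in SB80. Both spanned more than PR5 and XIP-I did, with the same highest and lowest lines.

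**Figure D5:**
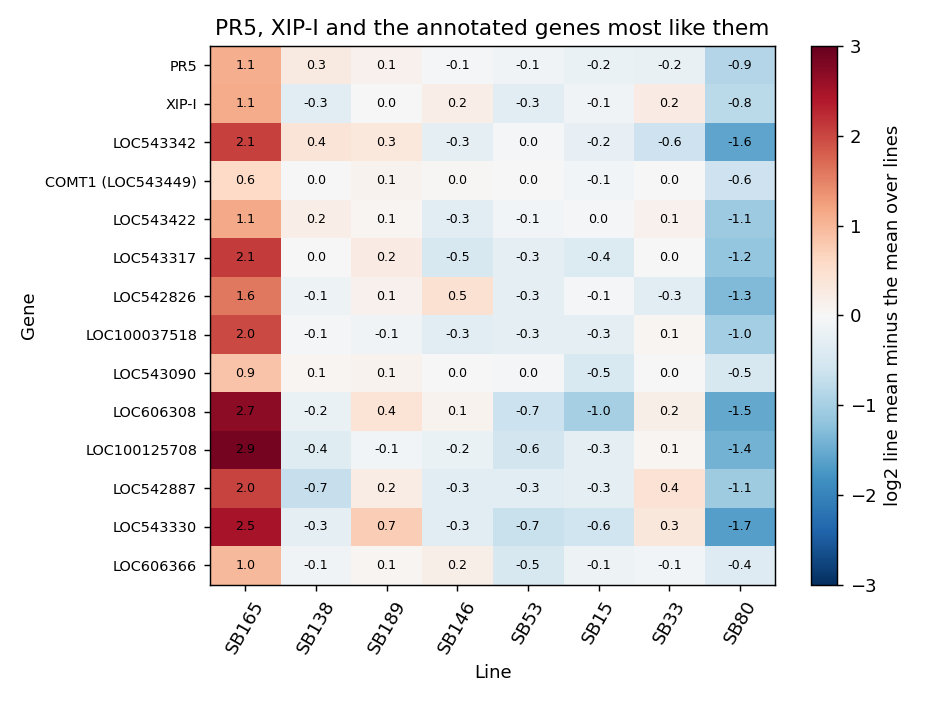
Line means of PR5, XIP-I and the annotated genes with the highest correlation to either, each as log2 difference from its own mean over the 8 lines. SB165 is the highest line in every row, SB80 is the lowest in every row but LOC606366, and the height of SB165 above the mean differs most between rows, at 0.60 in COMT1 and 2.87 in LOC100125708.

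Few other defence genes of the array could be set beside them, because most annotated genes carry no name. Of 18 gene lists searched by name, among them thaumatin-like proteins, xylanase inhibitors, PR1, glucanases and chitinases, 5 had a gene other than PR5 and XIP-I. They held 7 genes: 3 serpins, the peroxidase PER1, a thionin (LOC543413), wci (LOC542996) and, from a list of pollen and anther markers, the profilin LOC543315. None of the 7 had a line effect in limma's moderated F over the 8 lines (adjusted p under 0.05), 0 had an unadjusted p under 0.05, and none was called in SB165 or SB80 against the other lines. Over all probe sets 3.5% had a line effect, and 8.17% of 771 annotated genes did. SB165 was called higher at 1.42% (867) and lower at 0.535% (327) of probe sets. Without any 1 array it had 787 to 1608 higher and 287 to 1191 lower calls, with more lower than higher calls in 7 of these 16 fits. In the full fit SB80 was called higher at 1.02% (625) and lower at 1.67% (1023). With the median of each array's values above the floor subtracted, which shifted SB80 by 0.10, SB80 had 1871 higher and 1104 lower calls. Of the 7 genes only the profilin was at least 1 above the floor. The 6 defence genes had values near the floor, where a difference between lines could not be seen, so none of them was measurable here.

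A broader set of 19 genes was put together from names in the annotation after the likeness values were known, so it is described with no test. It held proteinase and amylase inhibitors, thionins, a lipid transfer protein, a lectin, induced and phenolic genes, and peroxide and glutathione enzymes. A role in leaf defence was read from names only and was not tested. Of the 19 genes 13, with serpins, thionins, the lectin WGA2 and wci among them, had means of at most 2.33, within 1 log2 unit of the floor at 2.25. Of the 6 brighter ones, COMT1 had the pattern given above. The other 5 had narrow ranges of line means, from 0.13 in the catalase CAT1 (mean 15.06) to 0.68 in the lipid transfer protein LTP3 (mean 10.96). The glutathione transferase GSTZ1 had 10.40 in SB165 and 10.58 in SB80. The amylase inhibitor WMAI-1 had 5.75 in SB165 and 5.88 in SB80. Prx1 (LOC606328) had its lowest line mean in SB165, at 12.90 ± 0.22, and its highest in SB80, at 13.34 ± 0.21 (SD, n = 2 each). This range of 0.45 is that of the brightest of its 4 probe sets, and no difference between lines is claimed from it.

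The leaf label was checked against 6 genes of photosynthesis, which had means of 12.89 to 16.57, with rbcL, the large subunit of Rubisco, brightest. Their line means ranged over 0.073 in petC to 0.22 in PsbO, far less than those of PR5 or XIP-I. The ranges are not compared like for like. PR5 and XIP-I were picked on their line values, and rbcL lay near 16.67, the highest value on any array. Against the mean of the other lines these 6 genes differed by -0.11 to 0.018 in SB165 and by -0.031 to 0.10 in SB80. In limma's contrast of SB80 with the other lines 1 of them, PsbP, was called higher, by 0.096 ± 0.020 (SE, adjusted p = 0.048). Over all probe sets 1.02% were called higher in SB80. The 6 genes were chosen after their values were seen. Of 8 grain storage genes, 7 were near the floor, and the avenin-like gene LOC100125692 was at 11.56 with a range of 0.23. Of 3 anther and pollen genes, raftin1a and raftin1b were near the floor, at 2.25 and 2.41, while the profilin LOC543315 was at 14.31 with a range of 0.16. Arrays of 1 line correlated at 0.992 to 0.996 over the 24751 brighter probe sets, and arrays of different lines at 0.969 to 0.988.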

How the data were processed

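Flag leaf RNA of 8 lines, with 2 field replicates each, was measured on 16 Affymetrix wheat arrays. The deposited table holds log2 values, 1 per probe set and array. RMA and GCRMA were used, per the submitters' processing notes, with no version and no statement of which made the table. Both methods scale arrays to each other, so a level is relative to all probe sets of its array. Dim probe sets collected at a floor of 2.25, with array medians of 2.35 to 2.39, and values at the floor have no order. Depth has no counterpart on arrays, and their number limits the precision. Genome build: not given in the sources used here, so no positions are given. Symbols come from the platform annotation, updated through gene identifiers to RefSeq for IWGSC CS RefSeq v2.1 (1272 of 1273 probe sets matched).

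PR5, XIP-I and all lists were chosen with earlier results of these data known. limma 3.58.1 in R 4.3.3 was fitted to 61115 probe sets, without 175 controls, with line as factor (8 residual degrees of freedom), Benjamini-Hochberg adjustment and a threshold of 0.05. For the contrast of field replicates, line was the block. The fits were first tested on simulated data. The replicates are field replicates, biological per the series' design, and p-values measure the spread between 2 such samples per line. Lines were called apart where their arrays did not overlap and the step exceeded the pooled SD within lines, which is a description and no test. Where a gene had several probe sets, the brightest stood for it. Genes named were both members, the 8 annotated genes and 3 unannotated probe sets with the highest Pearson correlation to each member over line means (mean at least 1 above the floor, range at least 1), and of each list those with a line effect and otherwise up to 3. Genes of lists read by name were chosen after their values were seen. Permutation tests used scipy 1.17.1 and numpy 2.4.6. Alternatives were other scalings, a filter on dim probe sets, another prior, a replicate block, and fits with arrays or lines left out.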

Additional observations from a re-analysis of the deposited data

How the results depend on the processing

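The log2 range of line means was 1.77 to 2.16 for PR5 and 1.86 to 2.01 for XIP-I when any 1 array was left out, and r between them was 0.81 to 0.89. Quantile normalization and subtraction of array medians (here and below, medians of the values above the floor) moved these values by less than the spread between replicates. Subtracting the poly-A spikes gave 0.82 for PR5, 0.99 for XIP-I and r = 0.57. Without SB165 r was 0.57, without SB80 it was 0.75, and without both it was -0.44 (with the spikes also subtracted, a choice made after seeing the data, 0.32). The counts behind the background shares moved more. The line effect was found at 2137 probe sets, at 3681 after subtraction of array medians, at 3360 of the 30557 brighter ones, at 1401 without SB80 (chosen after seeing the data), and at 2447 to 3818 without 1 array. It passed 1.5 times the count without replicate 1 of SB53 (3325), SB80 (3426), SB138 (3433) or SB189 (3818). SB165 had 1194 calls, 1913 among the brighter probe sets and 1448 to 2303 without 1 array, past 1.5 times the count without replicate 1 of SB53, SB189 or either array of SB80, SB138 or SB165, or replicate 2 of SB146. SB80 had 1648 calls (625 higher, 1023 lower), 2975 after subtraction of array medians (1871 higher, 1104 lower) and 1844 to 3034 without 1 array. Without replicate 1 of SB80 it had 3034 (2251 higher, 783 lower) and without its replicate 2 it had 2774 (2008 higher, 766 lower). The cause was not tested. Of the 7 list genes, 4 with values near the floor (wci, 2 serpins and the thionin) passed in 1 fit each without 1 array. The field replicates gave 0 calls by limma in each of the 19 alternatives run. Replicate differences correlated at -0.19 to 0.35 over pairs of lines (median 0.10) and above 0.1 in 16 of 28, not in every pair. The main line fits therefore had no replicate block. The contrast of field replicates and the correlations of replicate differences within lines used the numbers as labelled. They would change if the numbers were swapped in a line. With the replicate block the line effect was found at 1986 probe sets. Correlations within lines stayed on the same side of the threshold after quantile normalization. With 2 arrays per line the order of the middle lines is uncertain.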
